A study of Mus musculus with 10 samples.

Results

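The genes described here are 10 genes by which principal cells, the main cells of the kidney's collecting duct, handle water and sodium: Aqp2, Aqp3, Aqp4, Avpr2, Scnn1a, Scnn1b, Scnn1g, Hsd11b2, Nr3c2 and Fxyd4. They were chosen by name out of 43629 genes in the count table, and each symbol matched 1 gene. They were read in whole kidneys of 10 male mice of the UM-HET3 stock, in which every mouse has a different genotype, all 4 months old. The 6 control mice ate the Purina 5LG6 diet, and the other 4 ate the same diet with 10 ppm rilmenidine during their last month. Rilmenidine is an imidazoline receptor agonist prescribed against hypertension, and the comparison asks how kidney expression differed after it. In whole tissue, fewer principal cells and less RNA per cell cannot be told apart.
Principal cells of the collecting duct set the final water and sodium content of urine. Vasopressin binds its V2 receptor (Avpr2) on these cells and, through cyclic AMP, brings the water channel aquaporin-2 (Aqp2) to the luminal membrane and keeps its gene active, while aquaporin-3 and aquaporin-4 (Aqp3, Aqp4) let the water leave on the blood side. Aldosterone binds the mineralocorticoid receptor (Nr3c2) and increases sodium uptake through ENaC, the epithelial sodium channel built from an alpha, a beta and a gamma subunit (Scnn1a, Scnn1b, Scnn1g). Hsd11b2 inactivates glucocorticoids that would otherwise occupy that receptor, and Fxyd4 is a small regulator of the sodium pump.
Total counts ranged from 863605 to 3232063 per library, with a median of 1489031 in control and 2483263 in rilmenidine kidneys. Part of the label text speaks of liver, but Umod, a kidney tubule gene, had 1293 to 6361 counts and the liver gene Alb 0 to 20. Some features of the libraries were unequal between the groups. Malat1, a nuclear RNA, had 1182 to 2100 normalized CPM (counts relative to the effective library size) in control kidneys 1, 3, 4 and 5. It had 284 to 398 in the other 6 kidneys, among them all rilmenidine kidneys. Olfactory and vomeronasal receptor genes together stood under 10 CPM (counts relative to the total of the library) in the 3 deepest libraries (control 6, rilmenidine 3 and rilmenidine 4). They were above it in the other 7, 5 control and 2 rilmenidine. Values within those 7 libraries, or with Malat1 or library size in the fit, are given where they moved a result, and the other 3 libraries hold only 1 control.

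The 3 aquaporin genes had higher mean levels in rilmenidine kidneys, by 0.58 for Aqp2, 0.34 for Aqp3 and 2.12 for Aqp4 on the log2 scale, and each had an unadjusted p under 0.05. The ENaC subunits, Nr3c2, Hsd11b2 and Fxyd4 had log2 fold changes between −0.34 and 0.16 with unadjusted p-values from 0.265 to 0.984, and whether the water genes differed more than the sodium genes was not tested. None of these differences passed the adjusted threshold. Of 10055 genes tested by edgeR (quasi-likelihood, p-values adjusted after Benjamini-Hochberg), 0% had an adjusted p under 0.05 and 10.6% an unadjusted p under 0.05, 4.43% with higher and 6.13% with lower levels under rilmenidine. Of the 10 genes, 9 passed the filter on low counts and 3 of these had an unadjusted p under 0.05, all with higher levels. DESeq2 and the likelihood ratio test gave 2 of the 9 at that unadjusted threshold, beside 985 and 992 of the 10055 genes. A fit with library size (log2) as covariate gave 1, Aqp2. The share over all genes was 4.3% in that fit and 3.03% with log2 Malat1 as covariate, where 2 of the 9 were under 0.05, Aqp2 and Aqp4. Within the 7 libraries it was 10.6%, and the 2 genes under 0.05 there were Aqp3 and Hsd11b2.

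**Figure D1:**
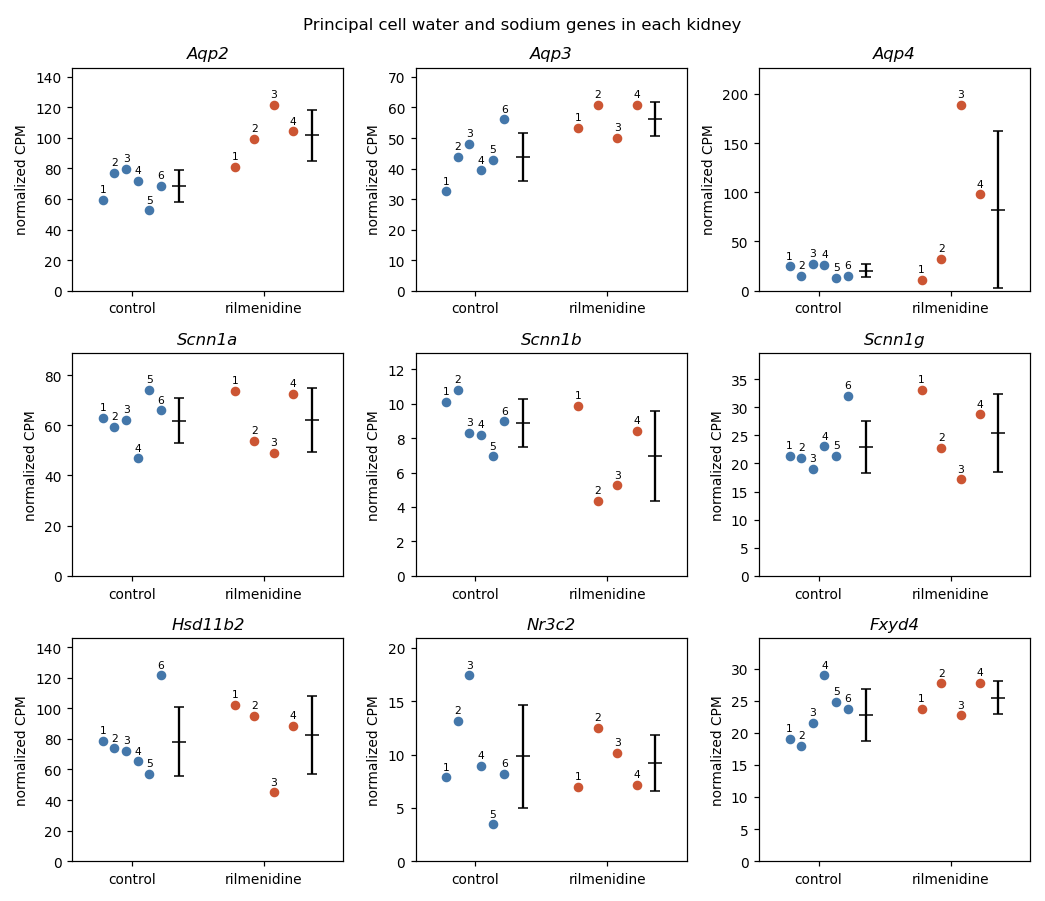
Normalized CPM (scaled by the effective library size) of the 9 tested genes in each of the 10 kidneys, control in blue and rilmenidine in red, with replicate numbers beside the points and the mean ± SD of each group as a black bar. The 4 rilmenidine kidneys lie above all control kidneys for Aqp2 alone, and Aqp4 is high in rilmenidine kidneys 3 and 4.

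Aqp2 (ENSMUSG00000023013; chromosome 15 of GRCm38, 99579055 to 99584547, plus strand) encodes the vasopressin-regulated channel of the luminal membrane. Its normalized CPM were 52.6 at the lowest, 70.3 at the median and 79.7 at the highest of the 6 control kidneys. In rilmenidine kidneys 1 to 4 they were 81.2, 99.4, 122 and 104. The groups therefore did not overlap, although rilmenidine kidney 1 and control kidney 3, the nearest pair, were close. Of all genes tested, 0.796% had every rilmenidine kidney above every control kidney and 0.875% had every one below. The group means were 68.3 ± 10.5 (SD, n = 6) and 102 ± 16.7 (SD, n = 4), a 1.49-fold difference. The log2 fold change was 0.58 (standard error 0.15, 95% interval 0.26 to 0.89) with an adjusted p of 0.229 in edgeR's quasi-likelihood test, and Aqp2 ranked 57 of 10055 by p. Within the 7 libraries with at least 10 receptor CPM the log2 fold change was 0.40 with an unadjusted p of 0.0662 and an adjusted p of 0.492 by the same test. With log2 library size or log2 Malat1 as a covariate it was 0.46 and 0.45.
Aqp3 (ENSMUSG00000028435; chromosome 4, 41092722 to 41098183, minus strand) encodes the aquaglyceroporin of the basolateral membrane. Control kidneys ranged from 32.55 to 56.15 normalized CPM around a median of 43.3. The 4 rilmenidine kidneys had 53.35, 60.8, 50.0 and 60.9. Rilmenidine kidneys 2 and 4 exceeded every control, whereas 1 and 3 stood below control kidney 6. The means were 43.8 ± 7.98 (SD, n = 6) and 56.3 ± 5.47 (SD, n = 4), and the log2 fold change was 0.34 (standard error 0.15, 95% interval 0.019 to 0.67; adjusted p = 0.442, edgeR quasi-likelihood test). It was 0.46 within the 7 libraries, and 0.17 with either library size or Malat1 as a covariate. These features were unequal between the groups, and their part in the value was not tested.
Both genes lay higher in rilmenidine kidneys, and the 250 bases before their RefSeq starts (GRCm38.p6) are shown so that the proximal promoters can be set side by side. The Aqp2 window lies at chr15:99578806-99579055 on the plus strand and that of Aqp3 at chr4:41098184-41098433 on the minus strand, each written 5′ to 3′ along the gene. Capitals mark matches to 4 motifs, the cyclic AMP response element core TGACG, the steroid receptor core AGAACA and the GATA motif AGATAA on either strand, and the TATA motif TATAA on the strand of the gene.
Aqp2 promoter: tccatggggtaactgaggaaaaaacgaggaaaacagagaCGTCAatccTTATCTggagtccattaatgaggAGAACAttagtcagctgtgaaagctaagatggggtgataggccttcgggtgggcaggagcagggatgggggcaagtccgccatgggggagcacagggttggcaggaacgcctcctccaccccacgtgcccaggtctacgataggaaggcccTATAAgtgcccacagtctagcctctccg
Aqp3 promoter: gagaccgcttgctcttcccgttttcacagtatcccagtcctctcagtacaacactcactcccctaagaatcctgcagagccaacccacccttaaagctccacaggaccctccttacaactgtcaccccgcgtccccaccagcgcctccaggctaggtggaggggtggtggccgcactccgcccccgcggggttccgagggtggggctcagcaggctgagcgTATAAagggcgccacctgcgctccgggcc
Aqp2 held all 4 motifs, with the cyclic AMP core in reverse complement from 211 to 207 bases before the start, the GATA motif, also reversed, from 202 to 197, the steroid receptor core from 179 to 174 and TATAA from 28 to 24. Aqp3 held the TATA motif alone, from 29 to 25 bases before its start. Among 32851 mouse promoters of this length, 17.8% held TGACG, 16.1% AGAACA, 9.99% AGATAA and 16.0% TATAA, and none of the motifs overlapped another in these windows. Of the 7 genes of the group with a listed promoter, the TATA motif was found in 2, Aqp2 and Aqp3, and AGAACA in 2, Aqp2 and Avpr2. TGACG and AGATAA were each found in 1, Aqp2. These matches describe the letters of the reference and were not tested for binding.

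Aqp4 (ENSMUSG00000024411; chromosome 18, 15389496 to 15410982, minus strand) encodes the second basolateral water channel, which in mice has also been found in the straight part of the proximal tubule. Its normalized CPM ranged from 12.7 to 27.4 in control kidneys with a median of 19.8. Rilmenidine kidneys 1 to 4 had 11.0, 32.04, 189 and 97.7, from 19, 59, 540 and 313 counts. Rilmenidine kidney 1 was thus below every control kidney, kidney 2 was slightly above them, and kidneys 3 and 4 stood far above all others. The means were 20.1 ± 6.60 (SD, n = 6) and 82.4 ± 80.0 (SD, n = 4), so that the standard deviation among treated kidneys was about as large as their mean. The log2 fold change was 2.12 (standard error 0.51, 95% interval 1.04 to 3.19) with an adjusted p of 0.211 in edgeR's quasi-likelihood test.
The difference in Aqp4 rested on rilmenidine kidneys 3 and 4, which are also the deepest libraries and have fewer than 10 receptor CPM. Control kidney 6 shares both features and had an Aqp4 level of 14.8 normalized CPM, inside the range of the other controls. Within the 7 remaining libraries the log2 fold change was 0.064 (adjusted p = 0.976, edgeR quasi-likelihood test). Without rilmenidine kidney 3 it was 1.32 and the adjusted p of the same test was 0.553, whereas without rilmenidine kidney 1 it was 2.47 and the adjusted p 0.0217. With library size as a covariate it was 1.36 (unadjusted p = 0.1125, edgeR). An antisense gene overlaps Aqp4, and the strand setting of the counting is not given.

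The vasopressin receptor gene itself could not be measured. Avpr2 (ENSMUSG00000031390; chromosome X, 73892102 to 73895502, plus strand) had 0 counts in 8 kidneys and 1 count in control kidneys 5 and 6, and was not tested. A count of 0 allows up to 3 counts, or 0.937 to 3.37 normalized CPM depending on the library, counting error only. The annotation places L1cam and Arhgap4 on the opposite strand over part of Avpr2, with 24 to 88 and 0 to 4 counts, and the strand setting of the counting is not given, so reads from the overlap may not have been assigned to Avpr2.
Downstream of the receptor, 18 genes of cyclic AMP signalling and Aqp2 trafficking were read, of which 14 passed the filter. In whole kidney their RNA may come from other cells than principal cells, whose share was not measured. In the edgeR test 0 had an unadjusted p under 0.05 with higher levels and 1 had one with lower levels, beside shares of 4.43% and 6.13% over all genes, and the median log2 fold change was 0.011 against 0.0021 over all genes tested. That gene was Vamp2, a vesicle SNARE of Aqp2 exocytosis, with a log2 fold change of −0.70 (unadjusted p = 0.0111, adjusted p = 0.321 in edgeR's quasi-likelihood test). Its normalized CPM were 23.8, 17.9, 17.5 and 17.2 after rilmenidine and ranged from 17.98 to 48.0 in the controls, so that 3 treated kidneys lay just below the lowest control. With log2 Malat1 in the fit Vamp2 had −0.13 (unadjusted p = 0.567, edgeR), with library size −0.43 (unadjusted p = 0.170, edgeR), and within the 7 libraries −0.65 (unadjusted p = 0.0672, edgeR). Creb1, a transcription factor activated by cyclic AMP signalling, had a log2 fold change of −0.28 and Ezr, the membrane linker ezrin and the most abundant gene of the list, −0.042. Gnas, which encodes the stimulatory G protein, had 0 to 19 counts and was not tested. Whether its reads were lost in the counting was not examined, so these counts do not show that the gene is silent. Adcy6, the adenylyl cyclase of this pathway, likewise did not pass the filter.

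For the 3 ENaC genes, no difference beyond the spread between kidneys was detected. Scnn1a (ENSMUSG00000030340; chromosome 6, 125320659 to 125344943, plus strand), the pore-forming alpha subunit that aldosterone induces in the collecting duct, had 46.8 to 74.0 normalized CPM in control kidneys with a median of 62.55. Rilmenidine kidneys had 73.65, 53.8, 49.0 and 72.45, all within the control range. The log2 fold change was 0.0033 with a 95% interval from −0.34 to 0.34.
Scnn1g (ENSMUSG00000000216; chromosome 7, 121734479 to 121768475, plus strand), the gamma subunit, had 33.05, 22.8, 17.1 and 28.7 normalized CPM in rilmenidine kidneys against 19.1 to 31.97 (median 21.4) in control kidneys. The highest and the lowest of all 10 kidneys were both treated ones. Its log2 fold change was 0.11 (95% interval −0.34 to 0.57). Control kidney 6 supplied the highest control value, and without it the log2 fold change was 0.25. Within the 7 libraries it was 0.40 (unadjusted p = 0.145, edgeR).
Scnn1b (ENSMUSG00000030873; chromosome 7, 121865038 to 121918514, plus strand), the beta subunit, was measured from 8 to 27 counts per library. Its normalized CPM were 6.94 to 10.8 in control kidneys around a median of 8.63, and 9.86, 4.34, 5.25 and 8.43 in rilmenidine kidneys 1 to 4. Rilmenidine kidneys 2 and 3 were below every control and the others were within the control range. The log2 fold change was −0.34 (standard error 0.30, 95% interval −0.97 to 0.29), so that at this depth a lower and a slightly higher level could not be told apart. Cog7 overlaps Scnn1b on the opposite strand and had 29 to 108 counts, and without the strand setting reads from the overlap cannot be told apart.

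**Figure D2:**
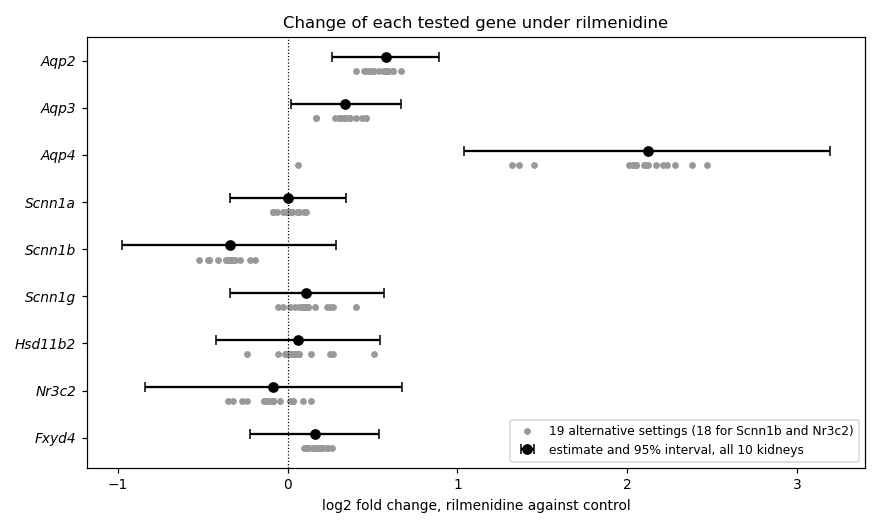
Log2 fold change of each tested gene, rilmenidine against control, with its 95% interval from edgeR's quasi-likelihood fit of all 10 kidneys in black and the values under the alternative settings as grey points. The intervals of Aqp2, Aqp3 and Aqp4 lie above 0, and for Aqp4 the value of 0.064 within the 7 libraries with at least 10 receptor CPM stands far from the others.

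On the hormone side of sodium uptake, Nr3c2 (ENSMUSG00000031618; chromosome 8, 76899442 to 77245012, plus strand) was low, with 6 to 29 counts per library. It ranged from 3.47 to 17.4 normalized CPM in control kidneys and had 6.96, 12.5, 10.1 and 7.18 in rilmenidine kidneys. The treated kidneys lay inside the control range, which was wide, with a standard deviation of 49.1% of the mean. The log2 fold change of −0.083 had a 95% interval from −0.84 to 0.67.
Hsd11b2 (ENSMUSG00000031891; chromosome 8, 105518755 to 105523988, plus strand), the enzyme that guards the receptor, had 57.3 to 122 normalized CPM in control kidneys with a median of 72.95, and 102, 95.03, 45.1 and 88.4 in rilmenidine kidneys. Rilmenidine kidney 3 was the lowest of all 10 and control kidney 6 the highest. The log2 fold change was 0.062 (95% interval −0.42 to 0.54; adjusted p = 0.958, edgeR quasi-likelihood test). Both kidneys are among those left out of the 7 libraries with at least 10 receptor CPM, where the log2 fold change was 0.51 with an adjusted p of 0.349 and an unadjusted p of 0.0135 by the same test.
Fxyd4 (ENSMUSG00000004988; chromosome 6, 117933559 to 117937692, minus strand), which modulates the sodium pump in the collecting duct, had the smallest relative spread of the sodium genes among treated kidneys, a standard deviation of 10.3% of the mean. It had 23.8, 27.7, 22.7 and 27.8 normalized CPM in rilmenidine kidneys and 17.98 to 29.0 in control kidneys. The treated kidneys again stayed within the control range, and the log2 fold change was 0.16 (95% interval −0.22 to 0.54). The genes that overlap Nr3c2 and Fxyd4 had 0 to 4 counts in any library.
Of 15 regulators of ENaC and targets of the mineralocorticoid receptor, 13 passed the filter, and 1 had higher and 2 had lower levels at an unadjusted p under 0.05, beside 4.43% and 6.13% of all genes, with a median log2 fold change of −0.049. Prss8, a protease that activates ENaC, had 197, 189, 206 and 170 normalized CPM in rilmenidine kidneys against 111 to 179 in control kidneys, 3 of the 4 above every control. Its log2 fold change was 0.41 (unadjusted p = 0.00855, adjusted p = 0.313 in edgeR's quasi-likelihood test). Wnk1, a kinase of distal salt transport, had a log2 fold change of −0.36 (unadjusted p = 0.02565, edgeR). With log2 Malat1 in the fit neither was under 0.05, with 0.15 for Prss8 (unadjusted p = 0.271, edgeR) and −0.19 for Wnk1 (unadjusted p = 0.270, edgeR). With library size they had unadjusted p-values of 0.0904 and 0.0705 in edgeR, and within the 7 libraries Prss8 had 0.51 (0.00983) and Wnk1 −0.39 (0.0608). The other gene with lower levels was Sgk1, the aldosterone-induced kinase that keeps ENaC at the membrane, named here after its values were seen. Sgk1 had 41.2, 44.0, 35.7 and 31.2 normalized CPM in rilmenidine kidneys against 27.4 to 71.3 in control kidneys, a log2 fold change of −0.44 (unadjusted p = 0.0436, edgeR). The value of Sgk1 was −0.26 within the 7 libraries (unadjusted p = 0.373, edgeR), with library size in the fit −0.46 (unadjusted p = 0.0904, edgeR), and with Malat1 −0.64 (unadjusted p = 0.0157, edgeR).

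Ratios between genes of the same kidney depend little on library scaling, and 3 of them were compared by two-sided exact permutation tests over 210 splits of the kidneys, whose smallest p is 0.00476. The log2 ratio of Aqp2 to Aqp3 was 0.63 ± 0.27 (SD, n = 6) in control and 0.83 ± 0.30 (SD, n = 4) after rilmenidine, with 0.60, 0.70, 1.27 and 0.77 in the 4 treated ones. The difference of 0.20 was smaller than the spread between kidneys (exact permutation p = 0.2905, 0.436 after Benjamini-Hochberg adjustment over the 3 ratios).
The log2 ratio of Scnn1b to Scnn1g was −1.27 ± 0.32 (SD, n = 6) in control and −1.74 ± 0.27 (SD, n = 4) after rilmenidine. The treated kidneys had −1.64, −2.14, −1.53 and −1.65, and 5 of the 6 control kidneys lay above all of them, while control kidney 6 had −1.72. The difference was −0.48 (exact permutation p = 0.0524, adjusted p = 0.157), and without control kidney 6 it was −0.57 (exact permutation p = 0.0159, adjusted p = 0.0476). Within the 7 libraries with at least 10 receptor CPM it was −0.72 (exact permutation p = 0.0476, the smallest that 5 against 2 kidneys can give, adjusted p = 0.143). The log2 ratio of Scnn1a to Scnn1g differed by −0.12 (exact permutation p = 0.4905, adjusted p = 0.4905), with 1.40 ± 0.32 (SD, n = 6) in control and 1.27 ± 0.14 (SD, n = 4) after rilmenidine.

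**Figure D3:**
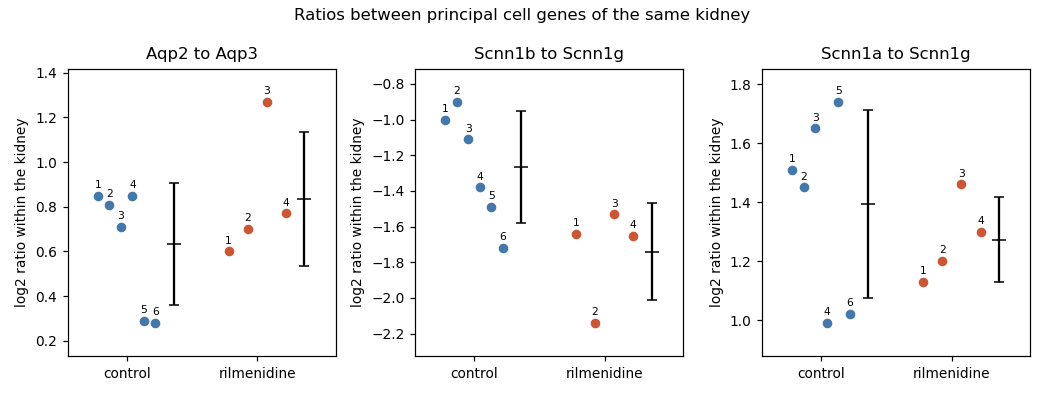
Log2 ratio of normalized CPM (prior count 2) between genes of the same kidney, control in blue and rilmenidine in red, with replicate numbers and the mean ± SD of each group as a black bar. For Scnn1b to Scnn1g, 5 of the 6 control kidneys lie above the 4 rilmenidine kidneys, and the groups overlap in every panel.

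Other genes of the collecting duct had values in both directions. Of 12 principal cell and collecting duct identity genes 10 passed the filter, and 2 of these had an unadjusted p under 0.05, both with lower levels in rilmenidine kidneys, beside 6.13% of all genes. They were the transcription factors Tfcp2l1, with a log2 fold change of −0.39 (unadjusted p = 0.0129, edgeR), and Gata2, with −0.48 (unadjusted p = 0.0322, edgeR). Neither was under 0.05 with Malat1 in the fit (unadjusted p = 0.123 and 0.260, edgeR), with library size (0.0701 and 0.111) or within the 7 libraries (0.108 and 0.211), where Tfcp2l1 had −0.27, −0.34 and −0.33 and Gata2 −0.29, −0.45 and −0.37. Cdh16, the kidney cadherin and the most abundant of the list, had 0.15. The median log2 fold change of the list was 0.043 and its summed level ranged from 874 to 1038 normalized CPM in control and 835 to 963 in rilmenidine kidneys. Cdh16 alone had 308 to 416 in control and 366 to 434 in rilmenidine kidneys, and Tfcp2l1 215 to 334 and 183 to 234. These genes make up a large part of that sum, which may include RNA of cells outside the collecting duct.
Of 7 genes that medullary cells use for osmolytes and urea, 4 passed the filter and all had log2 fold changes below 0, beside 49.7% of all genes, with a median of −0.16. Of these 4, 1 had an unadjusted p under 0.05, with lower levels, beside 6.13% of all genes. Nfat5, the tonicity-responsive transcription factor, had −1.08 (unadjusted p = 0.00347, adjusted p = 0.275 in edgeR's quasi-likelihood test). Its levels of 28.4, 39.6, 36.7 and 27.8 normalized CPM in rilmenidine kidneys lay within the control range of 29.4 to 110.5 or just below it. The 4 control kidneys high in Malat1 were also the 4 highest in Nfat5, and with log2 Malat1 in the fit Nfat5 had −0.028 (unadjusted p = 0.900, edgeR) and the list a median of 0.066. With library size in the fit Nfat5 had −0.57 (unadjusted p = 0.160, edgeR), and within the 7 libraries −1.20 (unadjusted p = 0.00598, edgeR). Hspa4l had −0.26 and Slc6a6, the taurine transporter, −0.028. Slc6a12, the betaine transporter, had 0 counts in every library, Akr1b3 had 0 to 4 and Slc14a2 0 to 3, and none of them was tested. In whole kidney, the values of the tested genes may come from cells outside the medulla.
In the neighbouring nephron segments, the tested genes of a list lay on one side of 0. Of 6 thick ascending limb genes tested (7 listed), all 6 had log2 fold changes above 0, beside 50.3% of all genes, and 2 had an unadjusted p under 0.05 with higher levels, beside 4.43%. These were Umod, with a log2 fold change of 0.61 (unadjusted p = 0.00237, edgeR), and Egf, with 0.42 (unadjusted p = 0.0230, edgeR). Within the 7 libraries neither was under 0.05, with 0.30 for Umod (unadjusted p = 0.166, edgeR) and 0.32 for Egf (unadjusted p = 0.172, edgeR). The summed level of the list was 1323 to 2058 normalized CPM in control and 1630 to 2662 in rilmenidine kidneys. Umod alone had 909 to 1451 in control and 1178 to 1986 in rilmenidine kidneys, a large part of that sum. Slc12a1, named here after its values were seen, had a log2 fold change of 0.082 (unadjusted p = 0.732, edgeR). Its treated kidneys lay inside the control range. Of 5 distal convoluted tubule genes tested (6 listed), all 5 had log2 fold changes below 0, beside 49.7% of all genes, and 2 had an unadjusted p under 0.05 with lower levels, beside 6.13%. These were the magnesium channel Trpm6, with −1.01 (unadjusted p = 0.006825, edgeR), and the sodium-chloride cotransporter Slc12a3, with −0.55 (unadjusted p = 0.00922, edgeR), while Calb1 had −0.29. Slc12a3 had −0.29 within the 7 libraries (unadjusted p = 0.185, edgeR), where Calb1 had −0.069 and the list a median of −0.069, and Trpm6 had −1.50 (unadjusted p = 0.00656, edgeR). With Malat1 in the fit Slc12a3 had −0.29 and Trpm6 −0.61 (unadjusted p = 0.196 and 0.133, edgeR), and with library size −0.32 and −1.12 (unadjusted p = 0.147 and 0.0196, edgeR). Trpm6 was lower in 4 of 4 rilmenidine kidneys than in any control, as were 0.875% of all genes tested, and was counted from 6 to 29 reads. The summed level of the distal convoluted tubule list was 777 to 1267 normalized CPM in control and 605 to 1008 in rilmenidine kidneys. Calb1 alone had 530 to 910 in control and 414.5 to 758.5 in rilmenidine kidneys, a large part of that sum. No gene of either list was at 0 in every library, and the part of segment content in the aquaporin values was not tested.
The 10 intercalated cell, 8 proximal tubule, 6 podocyte, 7 endothelial and 6 immune genes had 0 of 8, 0 of 8, 0 of 5, 0 of 7 and 0 of 5 tested genes at an unadjusted p under 0.05 in the same edgeR fit, beside 10.6% of all genes. Lists this short can hold 0 such genes at that share. The median log2 fold changes of these lists were −0.042, −0.027, −0.19, 0.0078 and 0.29. Their summed levels overlapped between the groups, at 286 to 422 and 235 to 460 normalized CPM for intercalated cells, which share the collecting duct with principal cells. They were 8502 to 9679 and 7908 to 9782 for the proximal tubule, 71.4 to 113 and 72.8 to 115 for podocytes, 237 to 419 and 346 to 375 for endothelium and 44.8 to 203 and 106 to 121 for immune cells, control first.

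**Figure D4:**
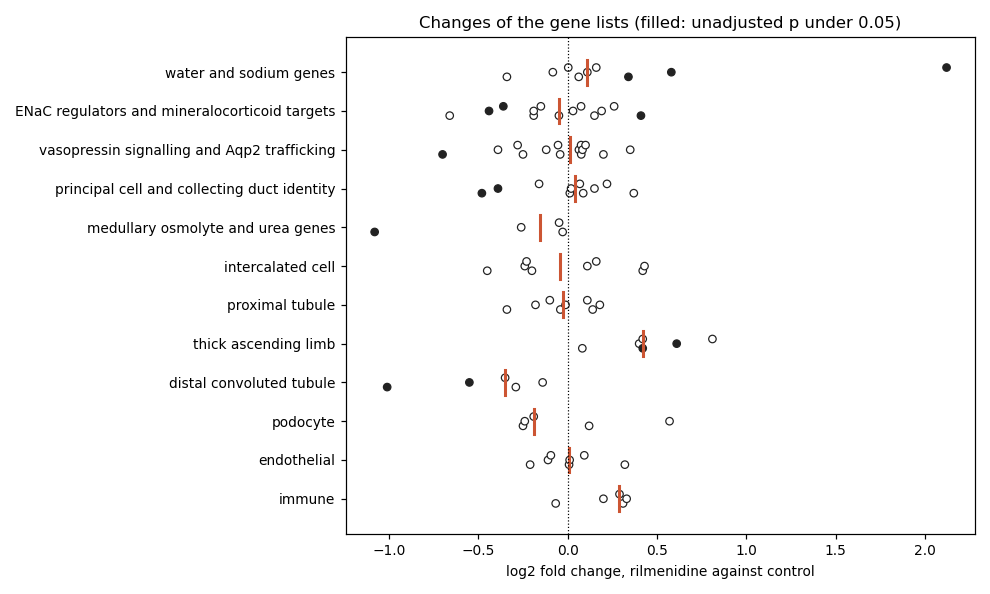
Log2 fold change of every tested gene of the 10 water and sodium genes and of 11 further lists, rilmenidine against control, with filled points at an unadjusted p under 0.05 in edgeR's quasi-likelihood test and a red bar at the median of each list. The 3 filled points of the water and sodium genes are Aqp3, Aqp2 and Aqp4 from left to right, and the medians of the thick ascending limb and distal convoluted tubule genes are 0.42 and −0.35.

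Across the 10 kidneys, the mean standardized log2 level of the 9 tested genes was highest in rilmenidine kidney 4, at 0.76, and lowest in control kidney 5, at −0.61. Rilmenidine kidney 3, the highest in Aqp2 and Aqp4, had a mean of −0.22, below control kidneys 2, 3 and 6. Among the 5 other genes most like this profile by Pearson's r over the 10 kidneys were Hacd1 (0.972), Rsl1d1 (0.910), Epn3 (0.906) and Pak1ip1 (0.878), picked from all 10055 tested genes for their likeness. These correlations are a description, since the kidneys fall into 2 groups and the genes share their libraries and depth.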

How the data were processed

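RNA of 10 kidneys was sequenced as libraries of transcript 3′ ends. Per the labels and the submitters' processing notes, the authors trimmed reads with Trimmomatic 0.32, mapped them with STAR 2.5.2b to mm10, counted them with featureCounts 1.5 and deposited counts of reads per Ensembl gene without normalization. The annotation release, strand setting and handling of molecular identifiers are not given in the sources used here, and uncollapsed duplicates would add amplification noise. Levels are compared between kidneys, not between genes. Symbols were taken from GENCODE M21 (GRCm38), which named 42462 of 43629 genes. The study's filter, a minimum of 6 reads in 66.6% or more of the kidneys, was applied, and counts were scaled by RLE and tested with edgeR 4.0.16 under R 4.3.3 (quasi-likelihood test, all 10 kidneys, no covariate), with Benjamini-Hochberg adjustment over 10055 genes. Standard errors are the log2 fold change divided by the square root of F. Ratios used log2 CPM with a prior count of 2. Total counts of 863605 to 3232063 limit low genes. Further control mice named in the methods are not among the labelled kidneys and could not be analysed here. No library was a copy of another (chi-square per degree of freedom at least 3.67). Labels name separate biological replicates.

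The rule for named genes beside the 10 was, of each of 11 other lists, the 2 tested genes with the smallest p and the most abundant one, and the 5 genes most like the group's mean profile. The intercalated cell, proximal tubule, podocyte, endothelial and immune lists are given by counts, medians and sums only, a choice made after their values were seen. Of the genes this rule picks, 2 are not reported here. The 10 genes, the 11 other lists and the tests were chosen with earlier results of these data known. The tests were tried on simulated data. Alternatives were TMM, 2 other filters, DESeq2 1.42.0, the likelihood ratio test, covariates of library size and Malat1, a subset by receptor reads, a replicate block, a prior count of 0.5 and leaving out each kidney.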

Additional observations from a re-analysis of the deposited data

Results flagged for a closer look

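Among 24 sets of kidneys examined for a value far from the rest (9 genes and 3 ratios in each group), 2 held one, and chance flags about 1 in 20. Both were high values of control kidney 6. Its Scnn1g level was 31.97 normalized CPM, with a gap to the next control of 0.694 of the range of the 6 controls. Its Hsd11b2 level was 122 normalized CPM, with a gap of 0.669 of that range. Without control kidney 6 the log2 fold changes of Scnn1g and Hsd11b2 were 0.25 and 0.25, with adjusted p-values of 0.636 and 0.622 in edgeR's quasi-likelihood test.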

How the results depend on the processing

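Over all genes, the number with an adjusted p under 0.05 was 241 with a loose filter (1 count in 1 sample), 60 with DESeq2 and 44 with the likelihood ratio test, and 0 to 37 with single kidneys left out (33 without control 2, 37 without control 6 and 6 without rilmenidine 1). Of the water and sodium genes, 1 had an unadjusted p under 0.05 with log2 library size as a covariate, beside 4.3% of all genes. With single kidneys left out 2 to 3 had one, beside 743 (without control 5) to 1457 (without control 6) of all genes tested. Aqp2 kept its direction in 19 of 19 alternatives and passed the adjusted threshold in 0 of them, with adjusted p-values from 0.0547 to 1.0. Aqp3 likewise kept its direction in 19 of 19, with adjusted p-values from 0.203. Aqp4 passed in 3, the likelihood ratio test, the loose filter and without rilmenidine 1. Under the loose filter the prior degrees of freedom of the fit were infinite (8.53 otherwise), so that its own spread between kidneys had no weight there. The sign changed for Scnn1a with at least 10 counts in every sample (−0.0022) and with library size (−0.028), for Nr3c2 (0.093) and Slc6a6 (0.088) with library size, for Scnn1g (−0.058), Hsd11b2 (−0.24), Cdh16 (−0.00047) and Slc6a6 (0.16) with Malat1 as a covariate, for Ezr within the 7 libraries (0.018) and with the replicate block (0.0022), and for the ratio of Aqp2 to Aqp3 within the 7 libraries (−0.056). The causes were not tested. With single kidneys left out the values ran from −0.084 to 0.11 for Scnn1a, −0.024 to 0.27 for Scnn1g, −0.054 to 0.27 for Hsd11b2, −0.27 to 0.14 for Nr3c2, −0.090 to 0.016 for Ezr and −0.086 to 0.050 for Slc6a6. The ratio of Scnn1b to Scnn1g ran from −0.57 to −0.34 and passed the threshold only without control 6. The ratios of Aqp2 to Aqp3 and Scnn1a to Scnn1g ran from 0.053 to 0.28 and −0.20 to −0.053.
With the replicate number as a block (replicates 1 to 4), Tfcp2l1, Gata2, Wnk1, Sgk1 and Egf had unadjusted p-values of 0.0809, 0.183, 0.0893, 0.0856 and 0.0510 (edgeR). In that fit 3 of the water and sodium genes had an unadjusted p under 0.05, beside 903 of 9793 genes tested (edgeR). The adjusted threshold was passed by 0 genes. The log2 fold changes were 0.49, 0.46 and 1.45 for Aqp2, Aqp3 and Aqp4. The labels do not tie the numbers to a litter or day, the deviations of same-numbered kidneys correlated between −0.0768 and 0.0775, and 1 of 4 control kidneys correlated best with its own number.
Depth limits Scnn1b, Nr3c2 and Avpr2 most.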

Other observations

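The kidneys that were high in Aqp4 were also high in other genes. The genes most like Aqp4 over the 10 kidneys, looked up after its values were seen, were Fam107a, Ddah1, Serpina1d, Napsa and Cyp7b1. Napsa, the aspartic protease napsin A of the proximal tubule, had 1369 and 1120 normalized CPM in rilmenidine kidneys 3 and 4 against 440 to 647 in the other 8 kidneys. Cyp7b1, an oxysterol hydroxylase, had 210 and 140.5 in these kidneys and 9.86 to 80.5 in the others. Serpina1d, a secreted protease inhibitor whose level is uncertain because it has near-identical neighbours, had 441 and 196 against 13.9 to 126.5. Fam107a had 86.1 and 42.5 against 14.9 to 26.7. Ddah1, which degrades an inhibitor of nitric oxide synthesis, had 853 and 771 against 640 to 749. In each of the 5 genes, rilmenidine kidney 3 was the highest and rilmenidine kidney 4 the second highest of the 10. The 5 genes were picked from all tested genes for their correlation with Aqp4, so this order follows largely from the choice and is a description.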
